A study of Mus musculus with 6 samples.

Results

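Alveolar macrophages are the resident phagocytes of the lung airspaces, and 33 genes that mark them were followed through mouse bronchoalveolar lavage cells with and without the signalling proteins CIS and STAT6. The genes were taken by name from what is known of this cell type, with its lipid, lysosomal and ribonuclease genes left out. The choice was made with earlier results of these data known, so shares set beside all tested genes only describe the list. The 33 comprise 13 surface, scavenger and phagocyte genes, 7 genes better known from epithelia, 6 transcription factors, 3 genes of the TGF-beta pathway and 4 others. All 33 were among the 40564 genes measured, and all 33 were among the 16765 genes with enough reads to test.

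Bulk RNA sequencing covered 6 libraries, 2 of each of 3 genotypes, from lavage cells of untreated mice. WT is the wild type. Cis_KO lacks CIS, the product of Cish. Cis_Stat6_DKO lacks both CIS and STAT6, so it shares the loss of CIS with Cis_KO, and no library with loss of STAT6 alone was analysed here. The labels used here give no sex, age or strain, no construction of the alleles and no number of animals behind a library, so the p-values measure only the spread between these samples. In bulk RNA, fewer cells of a type and less RNA per cell cannot be told apart.

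Alveolar macrophages clear surfactant, dust and microbes, and they depend on the cytokine GM-CSF, which signals through STAT5 and induces the regulator PPARG, and on TGF-beta. In the TGF-beta pathway a ligand joins the receptors TGFBR2 and TGFBR1, which activate SMAD2 and SMAD3. CIS is induced by STAT5 and damps cytokine receptor signalling, whereas STAT6 carries the signals of interleukin 4 and interleukin 13, which turn macrophages toward an alternatively activated state.

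The libraries held 50762354 to 65937118 counts each, and the 33 genes took 2.56% to 4.41% of them, or 1.53% to 1.87% without Lyz2. Levels are given as CPM, the reads of a gene over the library total as scaled by the TMM method, and levels of different genes are compared only as FPKM, which also divides by gene length. Both targeted genes were low where the labels say they were deleted. Cish stood at 46.2 and 56.2 CPM for WT, 4.34 and 3.52 for Cis_KO and 1.72 and 5.04 for Cis_Stat6_DKO, and Stat6 at 233 and 227 (WT), 264 and 221 (Cis_KO) and 31.6 and 25.5 (Cis_Stat6_DKO). The library of Cis_KO replicate 2 stood apart: haemoglobin genes took 3.29% of its counts against at most 0.0366% elsewhere, and 15855 genes had counts in it against 19641 to 20431 in the others. Reads of the rRNA-like gene CT010467 took 9.77% of counts in Cis_KO replicate 2, 7.87% in Cis_Stat6_DKO replicate 2 and 1.38% to 5.44% elsewhere. Fitted changes printed below that moved by more than 1.5 times without Cis_KO replicate 2 are given both ways.

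The lavage cells, which the labels call immune cells, carried the defining markers of alveolar macrophages at high levels. By mean FPKM in WT, Lyz2, which encodes lysozyme M, had rank 3 among all genes (11523 FPKM). It was followed by Lgals3 (galectin-3, 958 FPKM, rank 39), the tetraspanin gene Cd9 (781 FPKM, rank 45) and Marco (531 FPKM, rank 74). The defining markers Itgax and Siglecf reached 277 and 66.2 FPKM, Car4 194 and Adgre1 142. The lowest of the 33 were Tcf7l2 (4.22 FPKM, rank 6468) and Smad3 (0.170 FPKM, rank 14282). The order of Lgals3 and Cd9 was the same in both WT libraries, but the gap between them, of 928 to 877 FPKM in WT replicate 2, was smaller than the spread of Cd9 between the replicates, which read 685 and 877 FPKM.

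The scavenger receptor gene Marco and the repressor gene Bhlhe41 were lowest in Cis_KO and highest in Cis_Stat6_DKO, the lectin gene Siglece, the keratin gene Krt19 and the lineage factor gene Spi1 had the opposite order, and the TGF-beta receptor genes overlapped in all genotypes. Of 198 values of the 33 genes in the 6 libraries, 163 lay within 0.5 log2 units of the WT mean of their gene. This count includes the WT values, set against their own mean, and its share over all tested genes was not computed. By genotype, 9 genes were ordered, in 2 opposite directions. In edgeR's quasi-likelihood test with Benjamini-Hochberg adjustment over all genes tested, 0 of the 33 genes passed an adjusted p of 0.05 in any of the 3 comparisons, where 0.274% of all tested genes passed in Cis_KO against WT, 0.358% in Cis_Stat6_DKO against Cis_KO and 0.131% in Cis_Stat6_DKO against WT. At an unadjusted p under 0.05 in edgeR the genes numbered 6 of 33 in Cis_KO against WT (18.2%, against 11.1% of all tested genes). They numbered 13 in Cis_Stat6_DKO against Cis_KO (39.4%, against 18.3%) and 3 in Cis_Stat6_DKO against WT (9.09%, against 5.36%). DESeq2 called 2, 9 and 2 of the 33 in these comparisons, where it called 538, 1540 and 318 of all tested genes. With limma-voom 0 of the 33 were called in each, where 37, 62 and 26 of all tested genes were called.

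How far the levels could have moved was bounded by the intervals. The 95% interval of the change lay within a factor of 2 in either direction for 20 of the 33 genes in Cis_KO against WT (60.6%, against 29.6% of all tested genes). The same held for 17 in Cis_Stat6_DKO against Cis_KO (51.5%, against 26.3%) and for 23 in Cis_Stat6_DKO against WT (69.7%, against 38.9%). For 15 genes the interval lay within a factor of 2 in all 3 comparisons. The other tested genes were not matched to the 33 in level. The median log2 fold changes of the 33 in these comparisons were 0.10, 0.08 and 0.14, beside -0.05, 0.05 and -0.0027 over all tested genes.

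Separation of the libraries gives the pattern by genotype. Both Cis_KO libraries lay above both WT libraries for 11 of the 33 genes (33.3%, against 21.4% of all tested genes) and below them for 5 (15.2%, against 25.9%). Both Cis_Stat6_DKO libraries lay above both Cis_KO libraries for 12 (36.4%, against 27.9%) and below them for 7 (21.2%, against 22.5%). Against WT they lay above for 15 (45.5%, against 23.3%) and below for 6 (18.2%, against 23.5%). The comparisons share groups, so the 3 counts are not independent of each other.

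**Figure D1:**
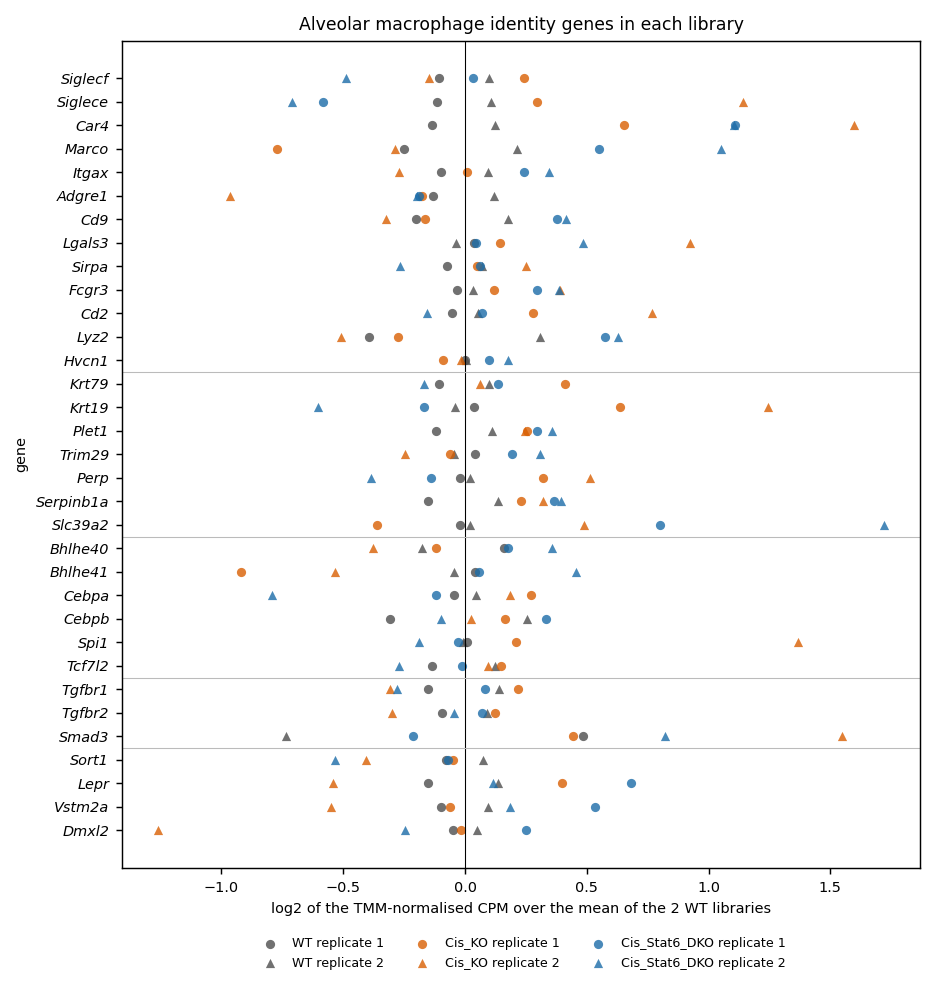
Level of each of the 33 genes (rows, grouped by role) in each of the 6 libraries, as the log2 of its TMM-scaled CPM over the mean of the 2 WT libraries. Colours stand for genotypes and shapes for replicates. With the WT points included, 163 of 198 points lie within 0.5 of the WT mean. Cis_KO replicate 2 held the highest of the 6 values for 10 genes and the lowest for 11. Cis_Stat6_DKO replicate 2 held the highest for 11 and the lowest for 11.

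Full separation in a single order was seen for 9 genes. In 4 of them, Marco, Hvcn1, Trim29 and Bhlhe41, Cis_KO was lowest, WT intermediate and Cis_Stat6_DKO highest (12.1% of the 33, against 6.25% of all tested genes). In 5 others, Siglece, Krt19, Perp, Cebpa and Spi1, the order was the reverse (15.2%, against 5.61%). These orders were picked out after the values were seen.

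**Figure D2:**
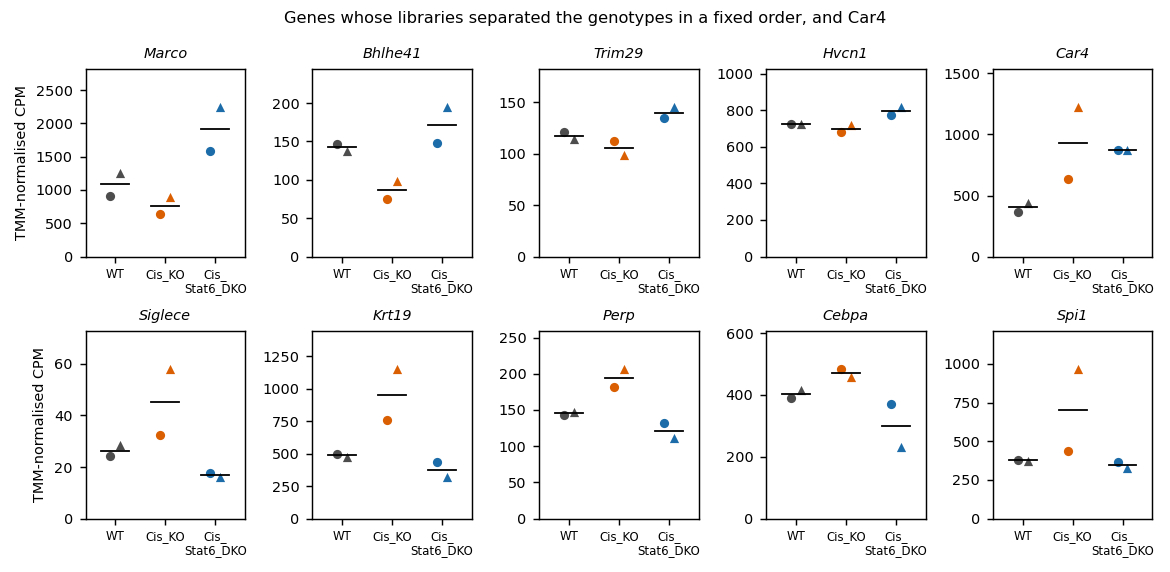
TMM-scaled CPM per library (points; circle replicate 1, triangle replicate 2) and group means (lines) for the 9 genes with full separation of the genotypes and for Car4. In the upper row Marco, Bhlhe41, Trim29 and Hvcn1 are lowest in Cis_KO and highest in Cis_Stat6_DKO, in the lower row the order is the reverse, and Car4 is higher in both mutant genotypes than in WT.

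In the 13 surface genes, both Cis_Stat6_DKO libraries lay above both WT libraries for 8 (61.5%, against 23.3% of all tested genes) and below for 2 (15.4%, against 23.5%), with a median log2 fold change of 0.28, and 0 of the 13 passed edgeR's adjusted test in any comparison. Among them, Marco carried the largest difference upward between the mutants. MARCO is a scavenger receptor of the class A family that binds unopsonised particles and bacteria. The gene (ENSMUSG00000026390, chr1:120474538-120505024, - strand, mm10) stood at 913 and 1259.9 CPM for WT, 637 and 889 for Cis_KO and 1589 and 2249 for Cis_Stat6_DKO. Each genotype was separate from the next, though only narrowly between WT replicate 1 and Cis_KO replicate 2. The log2 fold change of Cis_Stat6_DKO against Cis_KO was 1.33 ± 0.29 (SE), or 2.52-fold, with an adjusted p of 0.131. Without Cis_KO replicate 2 the change was 1.58, with an adjusted p of 0.0301 (0.000214 to 0.73 over all alternatives). Leaving out a library also takes the spread of its pair out of the test, which then rests on the other groups. Against WT the log2 fold change was -0.51 ± 0.29 in Cis_KO (-0.77 without that library) and 0.82 ± 0.29 in Cis_Stat6_DKO, with adjusted p of 0.499 and 0.801.

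Siglece, which encodes an inhibitory sialic acid-binding lectin of myeloid cells, had the opposite profile. The gene (ENSMUSG00000030474, chr7:43651070-43660161, - strand) stood at 24.3 and 28.4 CPM for WT, 32.3 and 58.1 for Cis_KO and 17.6 and 16.1 for Cis_Stat6_DKO. All 3 genotypes were separate, and the upper Cis_KO value came from replicate 2. The log2 fold change of Cis_Stat6_DKO against Cis_KO was -1.42 ± 0.31, a 2.68-fold lower level, with an adjusted p of 0.13. Without Cis_KO replicate 2 it was -0.95 (adjusted p 0.0448, and 7.28e-05 to 0.73 over all alternatives), and the change of Cis_KO against WT went from 0.78 to 0.30.

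Siglecf, the related lectin by which alveolar macrophages are usually sorted, had no order by genotype. Its libraries read 182 and 210.2 CPM for WT, 232 and 177 for Cis_KO and 201 and 139.9 for Cis_Stat6_DKO, and all genotypes overlapped. The 95% interval of its log2 change was -0.52 to 0.64 in Cis_KO against WT, a comparison in which its sign turned negative on library size without scaling and on FPKM. In Cis_Stat6_DKO against Cis_KO the interval was -0.84 to 0.31.

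Car4, which encodes a carbonic anhydrase anchored in the outer membrane, had all 4 mutant libraries above WT. The gene (ENSMUSG00000000805, chr11:84957786-84966044, + strand) read 368 and 442 CPM for WT, 637 and 1227 for Cis_KO and 873 and 870.4 for Cis_Stat6_DKO. The mutants overlapped each other, and Cis_KO replicate 2 was highest. Log2 fold changes against WT were 1.20 ± 0.32 in Cis_KO and 1.10 ± 0.32 in Cis_Stat6_DKO, with edgeR adjusted p of 0.353 and 0.57. Without Cis_KO replicate 2, the change in Cis_KO was 0.65, and that in Cis_Stat6_DKO was 1.10 with an adjusted p of 0.00959 (0.00573 to 1 over all alternatives).

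Promoters of genes with opposite or contrasting profiles are shown for comparison, from RefSeq on GRCm38.p6, each 5′ to 3′ on the strand of its gene and ending at or before the start of the gene as deposited. Capitals mark a match to 1 of 7 motifs that were searched on both strands in the 250 bases before the start site. Marco (chr1:120505025-120505274, - strand) and Siglece (chr7:43660162-43660411, - strand) held no match. Bhlhe41 (chr6:145865559-145865670, - strand) held an E-box, the motif that its own protein binds. Itgax (chr7:128129300-128129546, + strand) held a STAT6-type motif and an AP-1-type motif.
Marco: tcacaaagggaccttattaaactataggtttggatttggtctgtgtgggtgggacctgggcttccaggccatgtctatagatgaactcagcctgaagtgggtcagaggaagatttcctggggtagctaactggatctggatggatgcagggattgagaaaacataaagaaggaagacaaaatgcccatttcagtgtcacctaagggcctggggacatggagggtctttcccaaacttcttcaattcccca
Siglece: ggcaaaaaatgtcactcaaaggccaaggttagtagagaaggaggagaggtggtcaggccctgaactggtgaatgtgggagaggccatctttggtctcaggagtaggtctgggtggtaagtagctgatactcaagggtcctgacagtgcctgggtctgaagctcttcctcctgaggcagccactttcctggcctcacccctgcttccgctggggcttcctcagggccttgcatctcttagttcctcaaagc
Bhlhe41: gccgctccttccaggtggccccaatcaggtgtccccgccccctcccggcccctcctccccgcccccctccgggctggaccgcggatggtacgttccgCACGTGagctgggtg
Itgax: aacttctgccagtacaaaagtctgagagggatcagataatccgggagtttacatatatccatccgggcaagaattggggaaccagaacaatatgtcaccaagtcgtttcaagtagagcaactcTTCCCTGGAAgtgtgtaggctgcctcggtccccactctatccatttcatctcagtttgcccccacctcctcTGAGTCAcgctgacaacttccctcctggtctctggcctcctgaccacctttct
Of the 33 genes, 22 had such a window in the table, some of them for more than 1 start site. The windows of Fcgr3, Lgals3 and Slc39a2 and a second window each of Tgfbr1, Lepr and Tcf7l2 lay inside the gene as deposited, and the matches named below in Fcgr3, Lgals3, Slc39a2 and Tgfbr1 are from those internal windows. The STAT6-type motif, TTC and GAA with 4 bases between, was found in 2 of the 22 (Itgax and Lgals3), or 9.1%, against 6.8% of 27025 genes. The E-box CACGTG was found in 1 (4.5%, against 6.9%), the AP-1-type TGANTCA in 2 (9.1%, against 7.8%) and the SMAD-type CAGACA in 3 (Lgals3, Slc39a2 and Tgfbr1, all internal, 13.6%, against 19.3%). A C/EBP-type motif, TTGCNNAA or TTGCNNNAA, was found in 3 (Fcgr3, Plet1 and Tgfbr2, 13.6%, against 16.3%). The STAT5-type TTCNNNGAA and the PU.1-type GAGGAAGT were found in 0, against 8.1% and 2.8% of all genes. A match describes these letters only, and a missing match says nothing of the factor.

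Other phagocyte genes were highest in Cis_Stat6_DKO. Lyz2 read 12276 and 19996 CPM for WT, 13352 and 11336 for Cis_KO and 24048 and 24964 for Cis_Stat6_DKO. Both Cis_Stat6_DKO libraries were above all others, whereas WT and Cis_KO overlapped. Its log2 fold change against Cis_KO was 0.99 ± 0.29 (adjusted p 0.193), and its counts are uncertain because the neighbouring Lyz1 is nearly identical. Cd9 read 1478 and 1918 CPM (WT), 1516 and 1355 (Cis_KO) and 2207 and 2265 (Cis_Stat6_DKO) with the same separation and a log2 fold change against Cis_KO of 0.64 ± 0.21 (adjusted p 0.222). Itgax, which encodes the integrin subunit CD11c, read 1323 and 1510.2 CPM (WT), 1424 and 1175 (Cis_KO) and 1673 and 1797 (Cis_Stat6_DKO). Its Cis_Stat6_DKO libraries lay above the rest by less, and the log2 fold change against Cis_KO was 0.42 ± 0.20 (adjusted p 0.32), or 0.28 without Cis_KO replicate 2.

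Smaller or less even differences marked the remaining surface genes. Hvcn1, a voltage-gated proton channel of phagocytes, read 724 and 726 CPM for WT, 680.3 and 717 for Cis_KO and 776 and 818 for Cis_Stat6_DKO, a fully separated order whose log2 fold change between the mutants was only 0.19 ± 0.17. Lgals3 read 1940.0 and 1844 CPM (WT), 2088 and 3586 (Cis_KO) and 1953 and 2647 (Cis_Stat6_DKO), so that all 4 mutant libraries were above WT, narrowly so in Cis_Stat6_DKO replicate 1. Without Cis_KO replicate 2 its log2 change in Cis_KO against WT went from 0.58 to 0.14. Fcgr3, a receptor for immunoglobulin G, read 292 and 306 CPM (WT), 325 and 391 (Cis_KO) and 367 and 391 (Cis_Stat6_DKO), also above WT in all 4 mutant libraries. The 95% interval of its log2 change was -0.16 to 0.68 in Cis_KO and -0.08 to 0.77 in Cis_Stat6_DKO.

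Cd2, an adhesion receptor best known from T cells, read 289 and 311 CPM for WT, 364 and 510.0 for Cis_KO and 314 and 269 for Cis_Stat6_DKO. The Cis_KO libraries lay above all others, and WT and Cis_Stat6_DKO overlapped. Its log2 fold change in Cis_KO against WT was 0.54 ± 0.22 (adjusted p 0.438), and 0.28 without Cis_KO replicate 2. The T cell gene Cd3e reached at most 1.86 CPM in any library. Adgre1, which encodes the F4/80 antigen, read 445 and 529 CPM (WT), 430.4 and 249.6 (Cis_KO) and 427 and 424 (Cis_Stat6_DKO), and both mutants lay below WT, by a wide margin only in Cis_KO replicate 2. Without that library its log2 change in Cis_KO against WT went from -0.52 to -0.18. Sirpa, the receptor for CD47, ranged from 937 to 1342 CPM with every genotype overlapping.

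**Figure D3:**
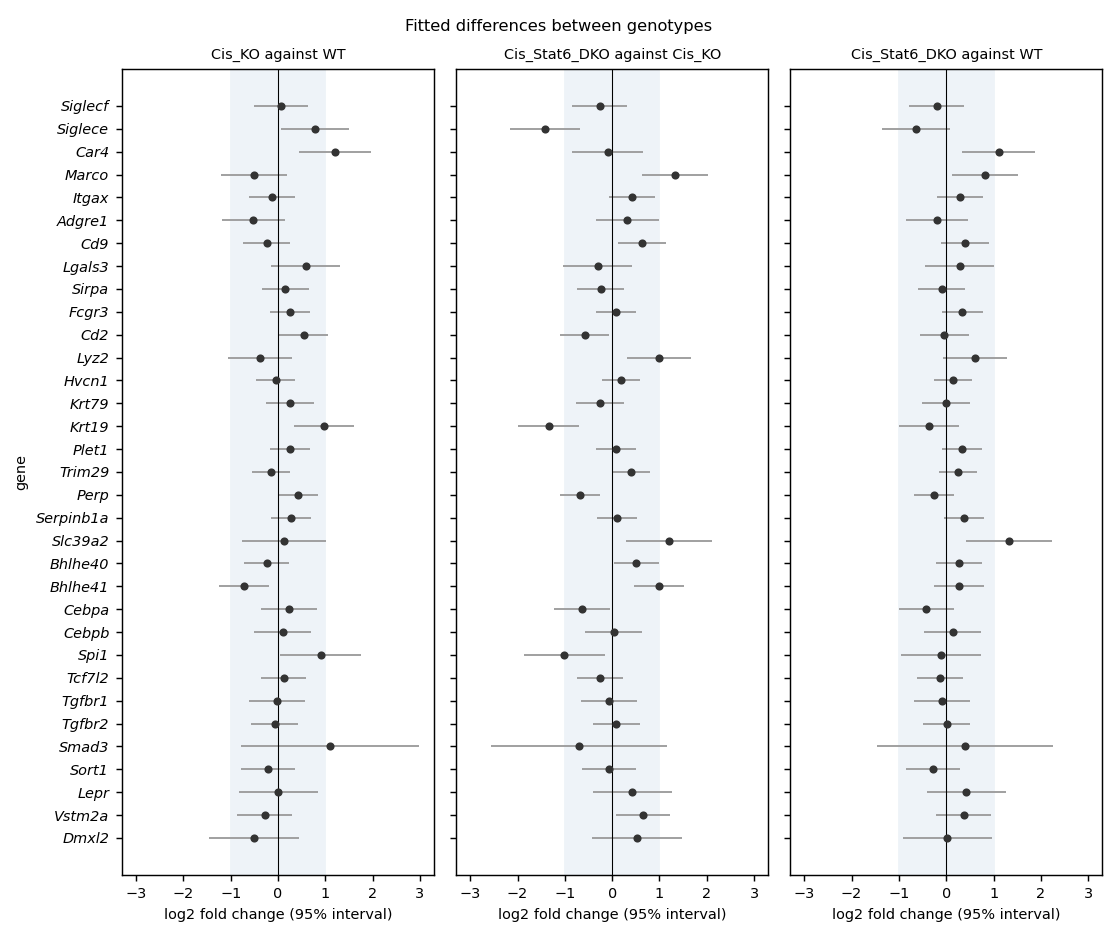
Fitted log2 fold change (points) with its 95% interval (bars) for each of the 33 genes in the 3 comparisons; the shaded band is a change of at most a factor of 2. Krt19 and Siglece lie lowest and Marco highest in Cis_Stat6_DKO against Cis_KO, whereas the TGF-beta receptors Tgfbr1 and Tgfbr2 stay inside the band in each comparison.

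Of the 7 genes better known from epithelia, both Cis_KO libraries lay above WT for 4, which were Krt19, Plet1, Perp and Serpinb1a (57.1%, against 21.4% of all tested genes). They lay below for Trim29 (14.3%, against 25.9%), and 0 passed edgeR's adjusted test. Krt19, a keratin that alveolar macrophages also express, differed most. The gene (ENSMUSG00000020911, chr11:100140810-100146120, - strand) read 501 and 474 CPM for WT, 757 and 1155 for Cis_KO and 434 and 321 for Cis_Stat6_DKO. All genotypes were separate, with Cis_KO highest. Its log2 fold change was 0.97 ± 0.27 in Cis_KO against WT (adjusted p 0.367) and -1.34 ± 0.27 in Cis_Stat6_DKO against Cis_KO (adjusted p 0.116). Without Cis_KO replicate 2 these were 0.64 and -1.01, the latter with an adjusted p of 0.0432 (5.79e-05 to 0.73 over all alternatives).

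Lung epithelial markers were measured beside Krt19. The summed level of 16 such markers was 111 and 131 CPM for WT, 51.4 and 283 for Cis_KO and 53.1 and 24.5 for Cis_Stat6_DKO. Like Krt19, the sum was highest in Cis_KO replicate 2, lowest in Cis_Stat6_DKO replicate 2 and below WT in both Cis_Stat6_DKO libraries. Both Cis_Stat6_DKO libraries lay below both WT libraries for 11 of the 16 markers (68.8%, against 23.5% of all tested genes). In Cis_KO replicate 1 the sum was below both WT libraries while Krt19 was above them. In Cis_KO against WT 9 of the 16 had a positive and 7 a negative log2 fold change, with a median of 0.49. Among the 7 was Epcam, which went opposite to Krt19 in both Cis_KO libraries. It read 28.95 and 22.6 CPM for WT, 3.36 and 4.41 for Cis_KO and 7.46 and 3.15 for Cis_Stat6_DKO. Its log2 fold changes against WT were -2.73 ± 0.46 in Cis_KO and -2.28 ± 0.45 in Cis_Stat6_DKO, with edgeR adjusted p of 0.112 and 0.23. The part of epithelial cells in the level of Krt19 was not tested.

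Perp, a p53 target of desmosomes, had the order of Krt19 at 143 and 147 CPM for WT, 181 and 207 for Cis_KO and 132 and 111 for Cis_Stat6_DKO. The genotypes were separate, and the log2 fold change between the mutants was -0.68 ± 0.18 (adjusted p 0.171).

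Trim29, a tripartite-motif protein that restrains innate responses of alveolar macrophages, had the order of Marco, at 121 and 114 CPM for WT, 113 and 99.0 for Cis_KO and 134 and 145 for Cis_Stat6_DKO. The lower WT and upper Cis_KO libraries differed by little more than 1 CPM, and the log2 fold change between the mutants was 0.40 ± 0.17 (adjusted p 0.275). Slc39a2, which encodes a zinc importer, varied between replicates of both mutants, at 132 and 135 CPM for WT, 104 and 187 for Cis_KO and 233 and 440.2 for Cis_Stat6_DKO. The Cis_Stat6_DKO libraries lay above all others, and those of Cis_KO lay on either side of WT. Its log2 fold change in Cis_Stat6_DKO was 1.33 ± 0.38 against WT and 1.21 ± 0.38 against Cis_KO, with adjusted p of 0.566 and 0.213.

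Plet1 and Serpinb1a were higher in both mutants by small amounts. Plet1, a surface glycoprotein, read 541 and 634 CPM for WT, 700.4 and 696 for Cis_KO and 722 and 753 for Cis_Stat6_DKO. Serpinb1a, an inhibitor of neutrophil serine proteases, read 151 and 184 CPM (WT), 197 and 209 (Cis_KO) and 216 and 221 (Cis_Stat6_DKO). WT was lowest and Cis_Stat6_DKO highest for both, without overlap, and the 95% interval of the log2 change in Cis_Stat6_DKO against WT was -0.10 to 0.75 and -0.04 to 0.80. Krt79 ranged from 362 to 541 CPM with overlap of all genotypes.

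Among the 6 transcription factors, between the mutants 4 had an unadjusted p under 0.05 in edgeR (66.7%, against 18.3% of all tested genes), 2 higher and 2 lower in Cis_Stat6_DKO, and 0 passed the adjusted test. Bhlhe41 and Bhlhe40 encode related repressors that alveolar macrophages need for self-renewal and for their identity. Bhlhe41 (ENSMUSG00000030256, chr6:145858243-145865558, - strand) read 147 and 138 CPM for WT, 75.2 and 98.3 for Cis_KO and 148 and 195 for Cis_Stat6_DKO. The Cis_KO libraries were well below the others, whereas WT and Cis_Stat6_DKO were separate by about 1 CPM at their nearest. Its log2 fold change was -0.72 ± 0.22 in Cis_KO against WT and 0.98 ± 0.22 in Cis_Stat6_DKO against Cis_KO, with adjusted p of 0.413 and 0.137. Without Cis_KO replicate 2 they were -0.92 and 1.18, the second with an adjusted p of 0.0298 (0.00247 to 0.73 over all alternatives). Bhlhe40 read 256 and 203 CPM (WT), 212 and 177 (Cis_KO) and 259 and 294 (Cis_Stat6_DKO), with Cis_Stat6_DKO above the rest and a log2 fold change against Cis_KO of 0.51 ± 0.20 (adjusted p 0.258).

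Spi1 and Cebpa, which encode the myeloid lineage factors PU.1 and C/EBP alpha, were highest in Cis_KO. Spi1 (ENSMUSG00000002111, chr2:91082390-91114366, + strand) read 378 and 374 CPM for WT, 435 and 968 for Cis_KO and 368 and 329 for Cis_Stat6_DKO. The groups were separate, but the size of the difference came from Cis_KO replicate 2. With that library the log2 fold change in Cis_KO against WT was 0.90 ± 0.36 and that of Cis_Stat6_DKO against Cis_KO -1.01 ± 0.36 (adjusted p 0.437 and 0.233), and without it they were 0.21 and -0.33. Cebpa read 389 and 415 CPM for WT, 484 and 456 for Cis_KO and 369.7 and 232 for Cis_Stat6_DKO. Here Cis_Stat6_DKO replicate 2 was the library farthest out, and the log2 fold change between the mutants was -0.65 ± 0.25 (adjusted p 0.25).

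Cebpb, the related factor of inflammatory and alternative activation, read 167 and 247 CPM for WT, 232 and 210.3 for Cis_KO and 259.9 and 193 for Cis_Stat6_DKO, with overlap throughout. Its 95% interval was -0.50 to 0.70 in Cis_KO against WT. Tcf7l2, an effector of Wnt signalling, read 36.5 and 43.7 CPM (WT), 44.4 and 42.8 (Cis_KO) and 39.7 and 33.2 (Cis_Stat6_DKO). Its Cis_Stat6_DKO libraries lay below those of Cis_KO and overlapped those of WT.

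The TGF-beta receptor genes stayed within a factor of 2 across the genotypes. Tgfbr1 read 227 and 278 CPM for WT, 294 and 204 for Cis_KO and 268 and 208 for Cis_Stat6_DKO, and Tgfbr2 read 395 and 449 (WT), 459.8 and 342 (Cis_KO) and 443 and 409 (Cis_Stat6_DKO). Every genotype overlapped for both. The 95% interval of the log2 change of Tgfbr1 was -0.61 to 0.57 in Cis_KO against WT, -0.66 to 0.53 in Cis_Stat6_DKO against Cis_KO and -0.68 to 0.50 in Cis_Stat6_DKO against WT. For Tgfbr2 it was -0.57 to 0.42, -0.41 to 0.58 and -0.48 to 0.51, so a change of more than a factor of 2 lay outside all 6 intervals. The effector Smad3 was scarce, at 0.614 to 2.99 CPM, with a wide interval of -0.78 to 2.98 around a log2 change of 1.10 in Cis_KO against WT, which was 0.45 without Cis_KO replicate 2.

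Of 28 other genes of the TGF-beta pathway, 25 were tested. In Cis_Stat6_DKO against Cis_KO 1 of the 25 passed the test, higher, and 0 passed in the other comparisons. At an unadjusted p under 0.05 in edgeR there were 5 of 25 in Cis_KO against WT (20%, against 11.1% of all tested genes), 8 in Cis_Stat6_DKO against Cis_KO (32%, against 18.3%) and 5 in Cis_Stat6_DKO against WT (20%, against 5.36%). Their median log2 fold changes were -0.39 in Cis_KO against WT, 0.17 in Cis_Stat6_DKO against Cis_KO and -0.10 in Cis_Stat6_DKO against WT. The gene that passed was Thbs1, which encodes thrombospondin-1, an activator of latent TGF-beta. It read 3.90 and 2.35 CPM for WT, 0.969 and 0.548 for Cis_KO and 35.5 and 16.8 for Cis_Stat6_DKO, all groups separate. The log2 fold change was 5.09 ± 0.57 against Cis_KO (adjusted p 0.0313, and 4.25e-24 to 0.268 over the alternatives), and it passed in 9 of 14 alternative analyses and in 4 of 6 with 1 library left out. Leaving out a Cis_Stat6_DKO library ended the call, with adjusted p of 0.152 without replicate 1 and 0.128 without replicate 2.

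Of the ligand genes, Tgfb1 was abundant and Tgfb3 nearly absent. Tgfb1 read 519.6 and 458 CPM for WT, 577 and 1274 for Cis_KO and 417 and 396 for Cis_Stat6_DKO, in the order of Spi1, with Cis_KO replicate 2 far above the rest. Its log2 fold change was 0.92 in Cis_KO against WT and -1.19 between the mutants, and 0.24 and -0.51 without that library. Tgfb2 read 7.38 and 5.51 CPM (WT), 3.08 and 3.15 (Cis_KO) and 1.13 and 1.15 (Cis_Stat6_DKO), highest in WT, with a log2 fold change of -2.50 ± 0.43 in Cis_Stat6_DKO against WT (adjusted p 0.162, and 0.012 without Cis_KO replicate 2). Tgfb3 reached at most 0.0867 CPM, and the co-receptor gene Tgfbr3 at most 0.799. Smurf1, a ubiquitin ligase that marks SMADs and receptors for degradation, had the order of Marco at 45.7 and 47.0 CPM for WT, 33.9 and 26.7 for Cis_KO and 59.6 and 78.3 for Cis_Stat6_DKO, with adjusted p of 0.106 between the mutants and 0.0495 without Cis_KO replicate 2, which passes the threshold. The SMAD corepressor gene Tgif1 read 72.5 and 75.0 CPM (WT), 55.0 and 41.3 (Cis_KO) and 63.7 and 71.0 (Cis_Stat6_DKO), with Cis_KO lowest. The receptor gene Acvrl1 read 81.1 and 71.5 CPM (WT), 79.6 and 112 (Cis_KO) and 57.8 and 38.2 (Cis_Stat6_DKO), with Cis_Stat6_DKO lowest.

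The 4 remaining identity genes overlapped between WT and Cis_KO. Sort1, the sorting receptor sortilin, ranged from 883 to 1345 CPM, and Lepr, the leptin receptor, from 48.8 to 114. Vstm2a, a secreted immunoglobulin-domain protein, read 51.0 and 58.3 CPM for WT, 52.4 and 37.3 for Cis_KO and 79.0 and 62.1 for Cis_Stat6_DKO, with Cis_Stat6_DKO above the rest and a log2 fold change against Cis_KO of 0.65 ± 0.24 (adjusted p 0.242), or 0.42 without Cis_KO replicate 2. Dmxl2, which takes part in acidifying vesicles, was level in 5 libraries at 166 to 234 CPM and read 82.2 in Cis_KO replicate 2.

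Regulators of macrophage identity outside the 33 genes were also listed, again with earlier results of these data known. They number 23, with 22 tested (Gata6, the factor of peritoneal macrophages, had 0 counts in every library). In edgeR 0 of the 22 passed the adjusted test in each comparison, with 4 at an unadjusted p under 0.05 in Cis_KO against WT (18.2%, against 11.1% of all tested genes), 8 in Cis_Stat6_DKO against Cis_KO (36.4%, against 18.3%) and 3 in Cis_Stat6_DKO against WT (13.6%, against 5.36%). Pparg, the regulator induced by GM-CSF, read 158 and 179 CPM for WT, 184 and 183 for Cis_KO and 205 and 185 for Cis_Stat6_DKO, and the 95% interval of its log2 change was -0.19 to 0.60 in Cis_Stat6_DKO against WT. Id3, an inhibitor of helix-loop-helix factors, had the order of Siglece at 4.45 and 2.63 CPM (WT), 6.55 and 15.0 (Cis_KO) and 0.867 and 0.720 (Cis_Stat6_DKO), and its log2 fold change between the mutants was -3.76 ± 0.58 (adjusted p 0.0716), or -3.05 without Cis_KO replicate 2, where it passed the threshold with an adjusted p of 0.0178. Klf2, a Krüppel-like factor, reached 42.7 CPM in Cis_KO replicate 2 and at most 13.5 elsewhere. Irf8, a myeloid lineage factor, was lowest in Cis_Stat6_DKO at 103 and 77.0 CPM, against 131 and 125 in WT. The same held for Csf1r, the receptor for M-CSF (285 and 255 against 373 and 409), and for the lysosomal regulator Tfeb (70.3 and 62.3 against 85.0 and 76.4). Zeb2 was lowest in Cis_KO at 99.9 and 69.5 CPM, against 129 and 131 in WT.

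The summed levels of markers of other cells that lavage can hold are compared only between libraries. The 10 erythroid and platelet markers summed to 38672 CPM in Cis_KO replicate 2 and to 15.5 to 359 elsewhere, and the 33 genes to 29629 in that library and to 26807 to 43226 elsewhere. The 16 markers of monocyte-derived and interstitial macrophages summed to 170.4 and 181 CPM for WT, 128 and 160.2 for Cis_KO and 279 and 285 for Cis_Stat6_DKO. Between 11 and 14 of the 16 had counts in a library. The list was highest in Cis_Stat6_DKO, as were Marco, Lyz2 and Cd9. Most of the sum came from Cd14 (128 and 144 CPM for WT, 90.1 and 102 for Cis_KO and 207 and 201 for Cis_Stat6_DKO). Itgam read 7.95 and 8.45 CPM (WT), 4.30 and 11.7 (Cis_KO) and 29.2 and 33.4 (Cis_Stat6_DKO). Its log2 fold change in Cis_Stat6_DKO was 1.97 ± 0.46 against Cis_KO and 1.93 ± 0.46 against WT (edgeR adjusted p 0.145 and 0.376). In Cis_Stat6_DKO against WT 10 of the 13 markers tested had a positive and 3 a negative log2 fold change. The defining markers Ly6c2 and Ccr2 ranged from 0.638 to 7.95 and 5.37 to 15.2 CPM. Cx3cr1 and C1qa ranged from 0.0438 to 2.28 and 0.548 to 1.43. Ly6c2 and Cx3cr1 were highest in Cis_KO replicate 2, Ccr2 in Cis_KO replicate 1 and C1qa in Cis_Stat6_DKO replicate 1. The part of these cells in the levels of Marco, Lyz2 and Cd9 was not tested.

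Neutrophil markers summed to 859 CPM in Cis_KO replicate 2 and to 175 to 312 elsewhere. In the order of the list, S100a8, S100a9, Ly6g and Retnlg read 189, 133, 4.38 and 20.4 CPM in that library. Both Cis_Stat6_DKO libraries lay above both WT libraries for 6 of the 11 neutrophil markers tested (54.5%, against 23.3% of all tested genes). They lay below for 1 (9.09%, against 23.5%). S100a9 read 1.35 and 1.24 CPM for WT, 0.438 in Cis_KO replicate 1 and 27.7 and 72.3 for Cis_Stat6_DKO. B and plasma cell markers summed to 103 CPM in Cis_KO replicate 2 and to at most 20.7 elsewhere. Lyz2, which neutrophils also express, was lowest of the 6 libraries in Cis_KO replicate 2, whereas Spi1, Siglece, Car4, Lgals3 and Cd2 were highest in it. The part of blood cells in those values was not tested.

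T and NK cell markers summed to 18.3 to 62.4 CPM and dendritic cell markers to 6.90 to 18.0, so both were scarce in every library. Of the 10 T and NK cell markers tested, Cis_KO and WT libraries overlapped for 8, among them Cd3e, Cd3d and Cd4. Both Cis_KO libraries lay below WT for 2 (20%, against 25.9% of all tested genes). Among the 2 was Il7r, which fell in Cis_KO from 32.9 and 22.6 CPM in WT to 3.74 and 3.20, with 11.2 and 18.5 in Cis_Stat6_DKO. The log2 fold change was -3.00 ± 0.36 (adjusted p 0.0441, and 9.17e-14 to 0.303 over the alternatives), and it passed in 8 of 14 alternative analyses and in 2 of 6 with 1 library left out. Leaving out a WT or a Cis_Stat6_DKO library ended the call, with adjusted p of 0.0875 to 0.221. Markers of eosinophils, which also carry SIGLECF, were scarce. Their sum was at most 0.809 CPM outside Cis_KO replicate 2 and 4.75 in it, where all of it was Alox15, which is not confined to eosinophils. Il5ra had 0 counts in every library, Epx reached at most 0.125 CPM and Prg2 at most 0.397.

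**Figure D4:**
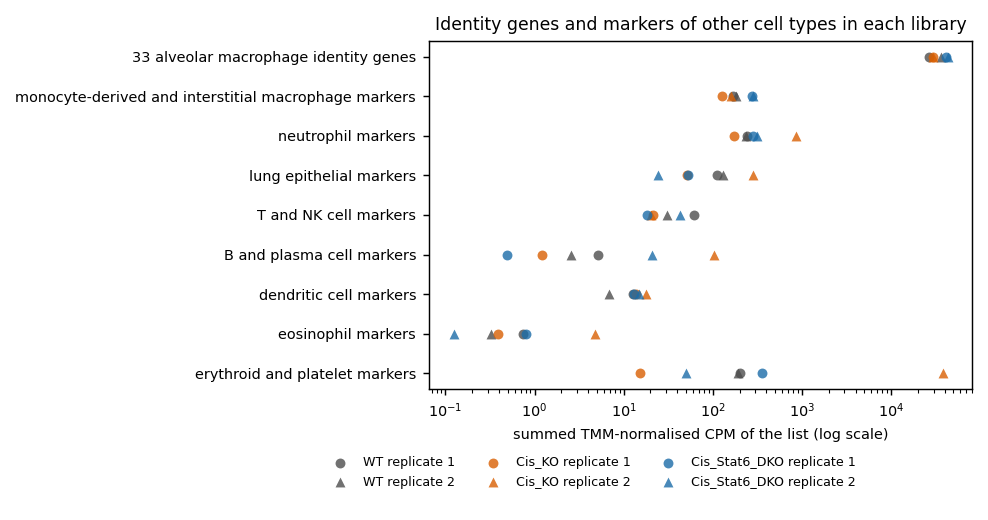
Summed TMM-scaled CPM (log axis) of the 33 identity genes and of 8 lists of markers of other cell types in each of the 6 libraries, coloured by genotype with circles for replicate 1 and triangles for replicate 2. Erythroid and platelet markers reach 38672 CPM in Cis_KO replicate 2, and the monocyte-derived and interstitial macrophage list is highest in both Cis_Stat6_DKO libraries.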

How the data were processed

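RNA of lavage cells was sequenced in 6 libraries. The authors deposited raw read counts per gene and FPKM values for each library, per the file headers, with mm10 as the build per the submitters' processing notes. Aligner, counter and strandedness were not given in the sources used here. Counts of overlapping, antisense or near-identical genes are therefore uncertain. Counts were tested with edgeR 4.0.16 (R 4.3.3): TMM factors of 0.863 to 1.077, filterByExpr, 1 quasi-likelihood fit over 6 libraries with 3 residual degrees of freedom, two-sided, Benjamini-Hochberg adjusted p under 0.05 over 16765 genes, tested on simulated data. At these depths, counting error is small beside the common biological coefficient of variation of 50.3%, except for genes with few reads. FPKM ranked genes by level. The 33 genes and the lists of other genes were chosen with earlier results of these data known. Every one of the 33 is described. Of each other list, genes named are those that passed, the 3 smallest p-values per comparison and the first 4 markers, several of them given only within sums. Alternatives used DESeq2 1.42.0, limma 3.58.1 (voom, or log2 FPKM with a pseudocount of 1 or 0.1), other filters and scalings, and each library left out.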

Additional observations from a re-analysis of the deposited data

How the results depend on the processing

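As 0 of the 33 genes passed in the main edgeR fit, no call could be lost under the alternatives. No value that passed in an alternative had the opposite direction. Of 1974 values, 1906 kept direction and side of the threshold or moved by less than a standard error. Another 59 passed where edgeR had not, and 9 changed sign by more, each of the 9 with 1 library left out. In Cis_KO against WT the count of the 33 called was 2 with DESeq2 (Car4, Krt19) and 3 with no filter on low counts (also Spi1), and 0 to 8 with 1 library left out. In Cis_Stat6_DKO against Cis_KO it was 9 with DESeq2 (Siglece, Marco, Cd9, Lyz2, Krt19, Perp, Slc39a2, Bhlhe41 and Spi1), 6 with no filter, 1 (Marco) on log2(FPKM + 1) with a minimum of 0.5, and 0 to 17 with 1 library left out: 17 without Cis_KO replicate 1 and 4 without Cis_KO replicate 2 (Siglece, Marco, Krt19 and Bhlhe41). In Cis_Stat6_DKO against WT it was 2 (Car4, Slc39a2) with DESeq2, with voom quality weights and with no filter, and 1 (Car4) with only the groups compared. Leaving out a library of a group assumes that its lone sample varies like the other groups, so counts of the 33 are not given for those fits. The cause of these differences was not tested.

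Counts of all genes called, 46, 60 and 22 in the 3 comparisons, were 538, 1540 and 318 with DESeq2, 1021, 1840 and 385 with no filter, 26, 29 and 20 without scaling, 38, 23 and 470 with voom quality weights, 6, 5 and 277 with only the groups compared, 74, 191 and 52 on log2(FPKM + 1), 59, 99 and 35 on log2(FPKM + 0.1), and 2, 2 and 1 on FPKM with no filter. With 1 library left out they ranged over 3 to 5349, 4 to 5999 and 0 to 350. With a replicate block the counts were 24, 28 and 12, and 0 of the 33. Deviations of same-numbered libraries from their group means were weakly correlated across genes (-0.0721, -0.121 and 0.0547). With 2 libraries a group this cannot decide whether the numbers pair the samples, and the labels do not say. The median of all genes shifted by -0.12 on log2(FPKM + 0.1) in Cis_KO against WT. Without scaling, Siglecf, Slc39a2, Cebpb and Lepr changed sign in Cis_KO against WT and Tgfbr2 and Dmxl2 in Cis_Stat6_DKO against WT. With 2 libraries a group, separation of groups is a weak measure, and 1 deviant library sets the size of several Cis_KO values.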

Other observations

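Genes of the marker lists with small p-values gave further differences between the lavage cells, none past edgeR's adjusted threshold in the fit over 6 libraries. Csf3r, the receptor for the granulocyte growth factor G-CSF, read 116 and 113 CPM (WT), 61.8 and 61.1 (Cis_KO) and 64.2 and 53.9 (Cis_Stat6_DKO), lower in all 4 mutant libraries, with log2 fold changes against WT of -0.90 ± 0.18 and -0.95 ± 0.18 (adjusted p 0.181 and 0.197). Cxcr2, a chemokine receptor of neutrophils, read 3.45 and 3.19 (WT), 2.94 and 4.11 (Cis_KO) and 10.4 and 10.1 (Cis_Stat6_DKO), highest in Cis_Stat6_DKO, and the protease gene Mmp8 did likewise at 14.9 and 15.8 (WT), 18.3 and 11.9 (Cis_KO) and 34.4 and 24.3 (Cis_Stat6_DKO). Ms4a7 read 15.0 and 12.7 (WT), 9.17 and 8.33 (Cis_KO) and 17.6 and 28.8 (Cis_Stat6_DKO), and the platelet chemokine gene Pf4, which macrophages also express, 1.17 and 1.68 (WT), 0.297 and 1.21 (Cis_KO) and 5.71 and 6.83 (Cis_Stat6_DKO). Both were highest in Cis_Stat6_DKO. Clec9a, a receptor of dendritic cells, read 0.0518 and 0.161 CPM (WT), 2.58 and 1.48 (Cis_KO) and 0.477 and 0.514 (Cis_Stat6_DKO). Its WT values rest on 3 and 11 reads. Among the 8 dendritic cell markers tested, it was the only 1 with both Cis_KO libraries above WT (12.5%, against 21.4% of all tested genes). Both lay below WT for 2, Xcr1 and Cadm1 (25%, against 25.9%). Surfactant genes stood lowest in Cis_Stat6_DKO replicate 2, where Sftpc and Sftpb read 0.823 and 0.493 CPM.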
